A study of Mus musculus with 6 samples.

Results

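This account covers 8 genes of the tumor necrosis factor (TNF) receptor superfamily and the ectodysplasin pathway, chosen by symbol among the 56748 Ensembl genes of the deposited count table. They are the receptor genes *Tnfrsf19*, *Edar*, *Tnfrsf12a*, *Tnfrsf11b*, *Tnfrsf21* and *Tnfrsf1a*, the ligand gene *Eda* and the adaptor gene *Edaradd*. All 8 symbols matched 1 gene each, and all 8 were among the 18188 genes tested. The genes were selected with the response to LiCl already known, so their values in this comparison are given as a description and without a test. Ureters of wildtype NMRI mouse embryos were dissected at E12.5 and kept on membranes for 18 h in medium with 15 mM LiCl or with the solvent water. LiCl blocks GSK3B, a kinase that marks CTNNB1 for decay, and so activates WNT signaling. Each group was profiled by RNA-Seq in 3 samples. The labels do not state how many ureters make a sample or whether samples come from separate cultures, so errors and p-values refer to the spread between these samples only. The explants hold epithelium, mesenchyme and other cells together, and fewer cells of a type cannot be told apart from less RNA per cell.

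Receptors of the TNF superfamily bind ligands of the TNF family with cysteine-rich domains outside the cell, and pass the signal on by death domains or by TRAF proteins, often to NF-kB. In the ectodysplasin branch, the ligand EDA binds the receptor EDAR, which recruits the death domain adaptor EDARADD and, through TRAF6, TAB2 and the kinase MAP3K7, activates NF-kB. The branch is best known from the development of hair, teeth and sweat glands, and mutations of *Eda*, *Edar* and *Edaradd* underlie the mouse mutants tabby, downless and crinkled. TNFRSF19, also named TROY, resembles EDAR in its ligand-binding part, has no death domain and is known as a target of WNT signaling that marks stem cells in several epithelia.

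To show where words bound by LEF/TCF factors, the nuclear effectors of WNT signaling, lie near these genes, windows from 250 bases before to 50 bases after the transcription start were taken from RefSeq (GRCm38.p6). Windows were found for 7 of the 8 genes, with 2 alternative starts for *Tnfrsf19* and none for *Tnfrsf11b*. The reads were aligned to a newer build, GRCm39, and no position of a read enters here. The consensus was searched on both strands as the word CTTTGAT or one of its forms, the word CTTTGAA or the word CTTTGTA or the word CTTTGTT likewise. Of the 8 windows, 3 held 1 of these words. Over all 32851 windows of this length, 16.9% held at least 1 of the 4 words and 3.73% held CTTTGAT. This word was found in the window of the downstream start of *Tnfrsf19*, the member with the largest difference, and in that of *Edar*, the receptor of the ectodysplasin branch. These 2 windows are shown 5′ to 3′ on the strand of the gene, with the word in capitals. In the *Tnfrsf19* window it reads as its reverse complement ATCAAAG and begins 202 bases before the start, and in the *Edar* window it begins 233 bases before the start.
Tnfrsf19, downstream start, GRCm38.p6 chr14:61037938-61038237, minus strand: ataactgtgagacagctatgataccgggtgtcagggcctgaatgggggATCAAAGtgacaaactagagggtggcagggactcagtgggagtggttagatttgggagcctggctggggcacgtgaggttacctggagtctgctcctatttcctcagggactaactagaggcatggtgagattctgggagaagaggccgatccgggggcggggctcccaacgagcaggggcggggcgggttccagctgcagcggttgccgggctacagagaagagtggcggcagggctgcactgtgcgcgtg
Edar, GRCm38.p6 chr10:58675647-58675946, minus strand: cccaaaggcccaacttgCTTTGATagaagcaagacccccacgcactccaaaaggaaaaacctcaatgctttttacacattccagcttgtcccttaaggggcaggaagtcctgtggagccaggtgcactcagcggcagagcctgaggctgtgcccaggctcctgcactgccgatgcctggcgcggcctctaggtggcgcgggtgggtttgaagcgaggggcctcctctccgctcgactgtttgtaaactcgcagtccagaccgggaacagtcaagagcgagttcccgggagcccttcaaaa
The third window with a word was that of *Tnfrsf1a*, which held CTTTGTA as TACAAAG, beginning 90 bases before the start. The window of the upstream start of *Tnfrsf19* held none of the 4 words. The NF-kB consensus was found in 0 of the 8 windows, against 4.51% of all windows. A match is a description of the letters, and whether a factor binds there was not measured.

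The samples held between 28473436 and 31266945 counts each. As a check of the treatment, *Axin2*, a feedback inhibitor and common readout of WNT signaling, rose from 71.8 ± 2.68 to 136 ± 2.03 CPM (counts scaled to a common library size, mean ± SD, n = 3 each). This was a log2 fold change of 0.92 ± 0.05 (± SE, as in all log2 fold changes below), with an adjusted p = 1.4e-06 in edgeR's quasi-likelihood test over all tested genes, as for every p below. Of the 9 WNT response genes listed, 8 rose at an adjusted p under 0.05, where 21.1% of all tested genes rose. With a log2 fold change above 1 required as well, 1 of the 9 rose, where 2.74% of all tested genes did. All 7 epithelial markers, among them *Cdh1* and *Krt8*, and all 7 mesenchymal markers, among them *Tbx18*, were detected in every sample. LiCl replicates 1 and 3 stood apart by skeletal muscle transcripts, whose 6 markers summed to 27.8 and 58.0 CPM there, 2.94 CPM in LiCl replicate 2 and at most 3.83 CPM in the controls.

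*Tnfrsf19* was the member with the largest difference. It had 17.0, 18.0 and 19.0 CPM in control replicates 1 to 3 and 81.4, 76.2 and 83.3 CPM in LiCl replicates 1 to 3. Every LiCl sample was thus far above every control, while samples of the same group differed by a few CPM. The underlying counts were 489, 559 and 581 in the controls and 2529, 2129 and 2348 with LiCl. This amounts to a log2 fold change of 2.16 ± 0.06, or 4.46-fold, and ranks 68th from the top among the 18188 tested genes. Without the samples that held muscle transcripts, LiCl replicate 2 alone gave a log2 fold change of 2.09 against the controls. *Notum*, a secreted WNT feedback inhibitor and the gene of the WNT response list with the largest difference, had a log2 fold change of 2.03 ± 0.12 (edgeR, adjusted p = 3.6e-06).

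The genes with profiles most like that of *Tnfrsf19* were sought by the root mean square difference of log2 CPM over the 6 samples, each gene centred on its control mean, among 15318 tested genes with at least 1 CPM in the controls. The nearest were *Atf5*, *Arhgef39*, *Ildr2*, *Tmod1* and *Myadml2os*, at differences of 0.12, 0.13, 0.17, 0.17 and 0.17. *Atf5*, a stress-responsive transcription factor gene, went from 52.8 to 216 CPM, and *Arhgef39*, a guanine nucleotide exchange factor gene, from 7.71 to 33.3 CPM. *Myadml2os* is an antisense gene, whose reads may belong to its partner. Likeness over 6 samples in 2 groups mostly reflects a difference of similar size between the groups.

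The components of the ectodysplasin branch were lower in abundance, and their values in both groups lay close together or rested on few counts. The ligand gene *Eda* had 8.28, 8.41 and 9.14 CPM in the controls and 9.07, 7.91 and 9.33 CPM with LiCl. The groups overlapped, with a log2 fold change of 0.03 ± 0.11. The adaptor gene *Edaradd* had 8.76, 7.80 and 7.80 CPM in the controls and 6.60, 6.87 and 8.02 CPM with LiCl. Here LiCl replicate 3 lay among the controls, and the log2 fold change was -0.18 ± 0.12.

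The receptor gene *Edar* was near the limit of detection. It had 16, 8 and 9 counts in the controls, or 0.56, 0.26 and 0.29 CPM, and 22, 18 and 21 counts with LiCl, or 0.71, 0.64 and 0.74 CPM. The LiCl samples lay above the controls, but control replicate 1 was closer to them than to the other controls. The log2 fold change was 0.92 ± 0.35, and with each sample left out it ranged from 0.73 without control replicate 2 to 1.33 without control replicate 1. The filter on low counts required 0.339 CPM in at least 3 samples, which *Edar* reached in 1 control and 3 LiCl samples, so that its place among the tested genes rested on the LiCl group.

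**Figure D1:**
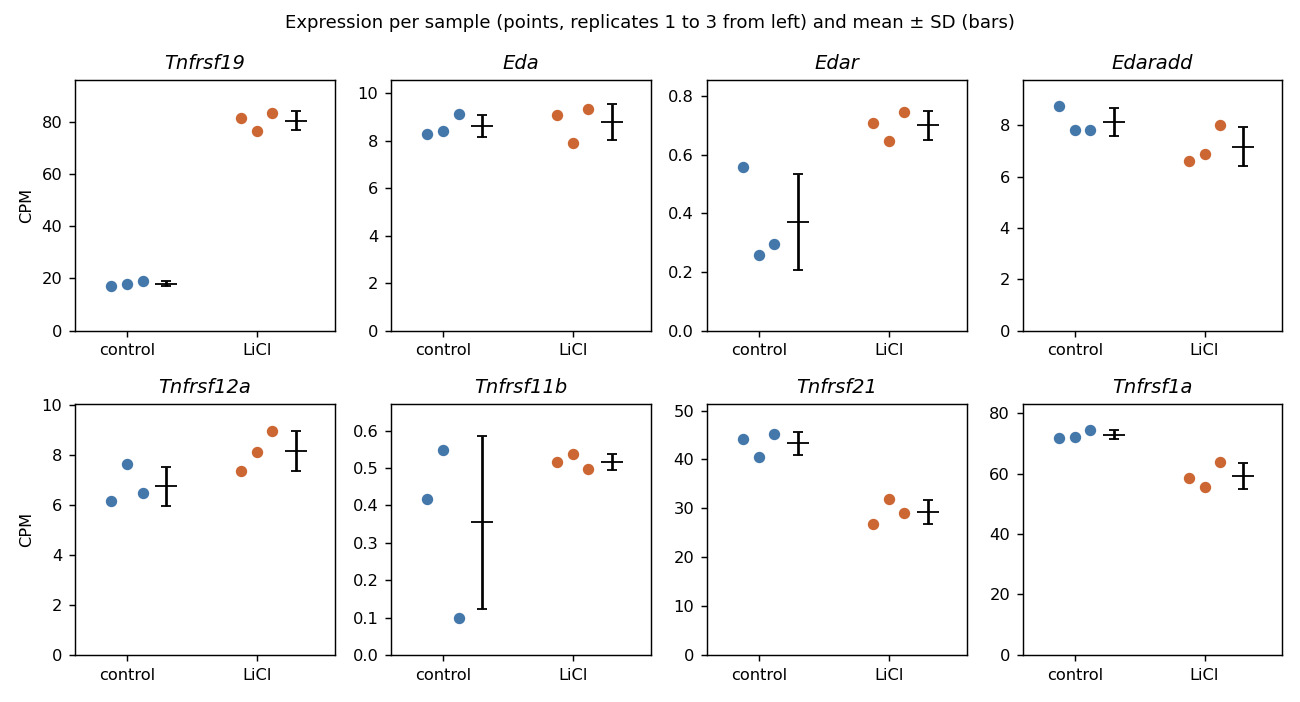
Expression of the 8 genes in CPM (y axis, from 0, scaled separately per gene) in the 3 control and 3 LiCl samples (points), with mean ± SD beside them (bars). *Tnfrsf19* separates from 17.0 to 19.0 CPM in the controls to 76.2 to 83.3 CPM with LiCl, *Tnfrsf21* and *Tnfrsf1a* are lower with LiCl in every sample, and *Edar* and *Tnfrsf11b* stay under 1 CPM.

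Of the receptors with a death domain, *Tnfrsf21*, which encodes death receptor 6 and is known from axon pruning, had 44.2, 40.5 and 45.1 CPM in the controls and 26.8, 31.9 and 29.0 CPM with LiCl. The groups were separated by more than the spread within either, with a log2 fold change of -0.57 ± 0.07, or 1.48-fold lower. *Tnfrsf1a*, the widely expressed main receptor of TNF, had 71.9, 72.2 and 74.5 CPM in the controls and 58.7, 55.4 and 64.0 CPM with LiCl. Every LiCl sample lay below every control, with a log2 fold change of -0.30 ± 0.06, or 1.23-fold lower. Neither difference came near a log2 fold change of -1.

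Markers of both tissue compartments differed between the groups as well, more of them lower than higher with LiCl. At an adjusted p under 0.05, 22.4% of all tested genes were lower and 21.1% higher. Each sum given here is weighted toward its most abundant markers. Of 7 epithelial markers, 5 were lower and 1 higher at an adjusted p under 0.05, and their summed level was 1081 to 1365 CPM in the controls and 797 to 835 CPM with LiCl. Of 7 mesenchymal markers, 4 were lower and 2 higher, and their sum was 5921 to 6601 CPM in the controls and 4231 to 4748 CPM with LiCl. Their part in the lower values of *Tnfrsf21* and *Tnfrsf1a* was not tested.

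*Tnfrsf12a* encodes FN14, the receptor of the ligand TWEAK, which is induced in injured and growing tissue. It had 6.16, 7.63 and 6.46 CPM in the controls and 7.37, 8.13 and 8.97 CPM with LiCl. Control replicate 2 lay above LiCl replicate 1, and the log2 fold change was 0.27 ± 0.13. *Tnfrsf12a* overlaps *Hcfc1r1* in the RefSeq annotation of GRCm38.p6, *Tnfrsf19* the predicted gene *Gm41167*, and *Eda* the predicted genes *Gm14829* and *Gm14828* and the microRNA gene *Mir676*. The library kit keeps the strand, but the strand setting of the counting is not given in the sources used here, so that reads of overlapping partners may be mixed. Of the genes named below, *Eda2r*, *Tnfrsf13b*, *Tnfrsf18*, *Tnfrsf23*, *Tnfsf12*, *Tnfsf13*, *Traf1*, *Map3k7*, *Tab1*, *Tab3* and *Ripk1* also overlap another gene. The same holds for *Nfkbib*, *Ikbkg*, *Nfkb1*, *Ccn2*, *Shh*, *Rtn4*, *Rtn4r*, *Lingo1*, *Furin*, *Adam17* and *Timp3*.

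*Tnfrsf11b* encodes osteoprotegerin, a secreted decoy receptor of the ligand RANKL. It had 12, 17 and 3 counts in the controls, or 0.42, 0.55 and 0.10 CPM, and 16, 15 and 14 counts with LiCl, or 0.51, 0.54 and 0.50 CPM. The controls spanned the LiCl values, and the log2 fold change of 0.54 ± 0.48 was 0.10 without control replicate 3 and 1.02 without control replicate 2. Like *Edar*, this gene passed the filter with 3 LiCl samples and fewer controls, 2 in this case.

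With the adjusted p under 0.05 and the log2 fold change past 1 in either direction as thresholds, 1 of the 8 genes, *Tnfrsf19*, was past the thresholds, where 7.33% of all tested genes were. Without the minimum fold change, 3 of the 8 were (*Tnfrsf19*, *Tnfrsf21* and *Tnfrsf1a*), where 43.5% of all tested genes were. In 4 of the 8 the groups did not overlap, as they did not in 54.2% of all tested genes, with *Tnfrsf19* and *Edar* higher (26.4% of all tested genes) and *Tnfrsf21* and *Tnfrsf1a* lower (27.8%). The median log2 fold change was 0.15 for the 8 genes and -0.01 for all tested genes. Since the genes were chosen from this comparison, nothing is read from these counts.

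Levels can be compared between genes only per length, for which the deposited FPKM values were used. In the controls, the order was *Tnfrsf1a* with 27.8 ± 0.62 FPKM, *Tnfrsf21* with 10.4 ± 0.55, *Tnfrsf19* with 3.76 ± 0.22, *Tnfrsf12a* with 3.46 ± 0.42, *Eda* with 1.25 ± 0.070, *Edaradd* with 1.20 ± 0.075, *Tnfrsf11b* with 0.124 ± 0.082 and *Edar* with 0.10 ± 0.044 FPKM (SD, n = 3 each). The neighbors *Tnfrsf19* and *Tnfrsf12a*, *Eda* and *Edaradd*, and *Tnfrsf11b* and *Edar* differed by less than their spread. The adaptor gene *Edaradd* was thus present at a much higher level per length than its receptor gene *Edar*. With LiCl, *Tnfrsf19* reached 17.0 ± 0.81 FPKM and took the second place, between *Tnfrsf1a* with 22.9 ± 1.72 and *Tnfrsf21* with 7.12 ± 0.61 FPKM. The ligand gene *Eda*, with 1.29 ± 0.11 FPKM, and *Edaradd*, with 1.08 ± 0.12 FPKM, overlapped with their control levels. *Edar* with 0.19 ± 0.014 FPKM and *Tnfrsf11b* with 0.18 ± 0.0068 FPKM again differed by less than their spread.

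**Figure D2:**
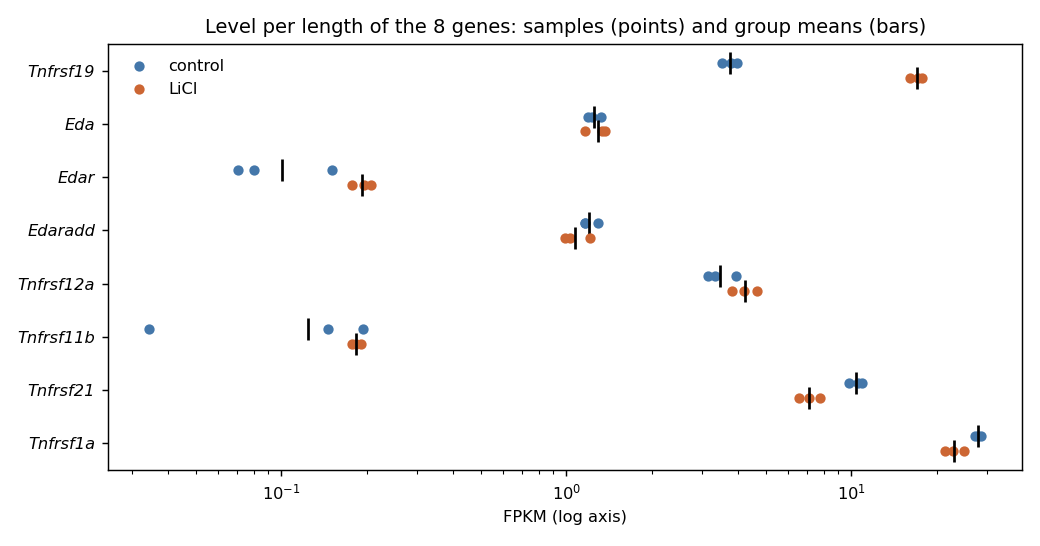
Level per length of the 8 genes in FPKM (x axis, logarithmic) in the control and LiCl samples (points) with group means (vertical bars). *Tnfrsf19* moves from a control mean of 3.76 to 17.0 FPKM and passes *Tnfrsf21*, while *Eda* and *Edaradd* overlap between the groups near 1 FPKM.

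To place the 6 receptor genes within their family, the FPKM of 28 TNF receptor superfamily genes were summed per sample. Of these, *Tnfrsf22*, *Tnfrsf23* and *Tnfrsf26* are close paralogs whose reads may be split. The sum was 86.7, 90.4 and 92.7 FPKM in control replicates 1 to 3 and 95.4, 93.4 and 99.5 FPKM in LiCl replicates 1 to 3. *Tnfrsf19* made up 4.17 ± 0.11% of this sum in the controls and 17.6 ± 0.41% with LiCl. In the controls its share differed by less than the spread from those of *Ngfr* with 4.41 ± 0.45%, *Tnfrsf22* with 4.32 ± 0.19% and *Tnfrsf18* with 4.21 ± 0.58%, and in every LiCl sample it was the third of the 28. *Tnfrsf1a* held the highest share in both groups, with 30.9 ± 0.42% in the controls and 23.8 ± 1.01% with LiCl. The share of *Tnfrsf21* was 11.6 ± 0.68% in the controls and 7.42 ± 0.77% with LiCl, and that of *Tnfrsf12a* 3.84 ± 0.44% and 4.39 ± 0.35% (SD, n = 3 each). *Ltbr*, the lymphotoxin beta receptor gene, was second in both groups with 21.9 ± 1.28% and 20.7 ± 0.43%.

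**Figure D3:**
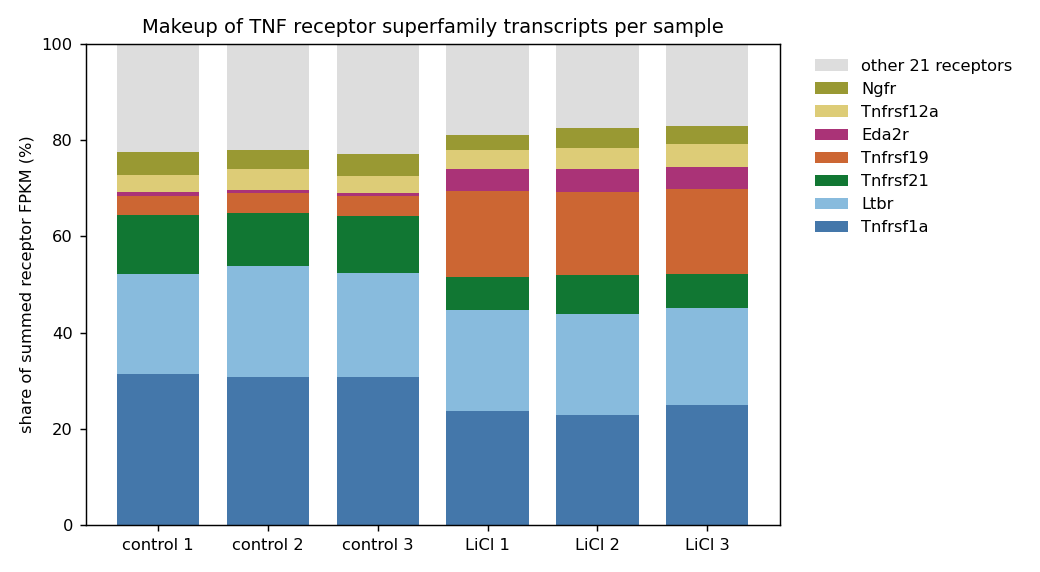
Share of each receptor gene in the summed FPKM of 28 TNF receptor superfamily genes (y axis, percent) per sample, with 7 genes shown separately and the other 21 combined. The *Tnfrsf19* segment makes up 4.06% to 4.28% in the controls and 17.2% to 18.0% with LiCl, and the *Eda2r* segment 0.57% to 0.78% and 4.47% to 4.65%.

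Of the 22 other TNF receptor genes, 17 were tested. At the thresholds given above, 2 rose and 2 fell, where 2.74% of all tested genes rose and 4.59% fell, and the median log2 fold change of the 17 was -0.16. *Eda2r*, which encodes the receptor of the EDA-A2 form of ectodysplasin and is known as a p53 target, rose from 3.74 ± 0.52 to 25.7 ± 0.61 CPM (SD, n = 3 each), a log2 fold change of 2.78 ± 0.11 (edgeR, adjusted p = 3.2e-07). This difference was larger than those of *Eda*, *Edar* and *Edaradd* given above. *Tnfrsf8*, which encodes CD30, rose from 7, 1 and 4 counts to 33, 40 and 13 counts with LiCl, a log2 fold change of 2.85 ± 0.60 (edgeR, adjusted p = 0.0043). It passed the filter on low counts through the LiCl samples alone, so that it could enter the test only as a gene higher with LiCl. Its log2 fold change ranged from 2.39 to 3.54 with each sample left out, it was not tested at a minimum of 10 counts per sample or in the filtered FPKM values, and it was not called on log2(FPKM + 1) without filter. *Tnfrsf18*, which encodes GITR, fell from 5.83 ± 0.74 to 2.85 ± 0.47 CPM (SD, n = 3 each; log2 fold change -1.03 ± 0.17, edgeR adjusted p = 0.0011). *Tnfrsf13b*, which encodes TACI, fell from 15, 37 and 30 to 12, 9 and 12 counts (log2 fold change -1.24 ± 0.37, edgeR adjusted p = 0.022).

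*Tnfrsf8*, *Tnfrsf13b* and *Tnfrsf18* are known from lymphocytes. Of the T cell markers, *Cd3e* had no count in any sample and *Cd3g* had at most 1 count per sample. The pan-leukocyte gene *Ptprc* fell from 6.59 ± 1.95 to 4.01 ± 0.62 CPM (SD, n = 3 each; log2 fold change -0.72 ± 0.21, edgeR adjusted p = 0.023). Of 6 macrophage markers, 3 fell and 1 rose at an adjusted p under 0.05, where 22.4% of all tested genes fell and 21.1% rose. The 6 markers summed to 56.9 to 90.3 CPM in the controls and 56.7 to 72.7 CPM with LiCl. Their part in the changes of these receptor genes was not tested. The call of *Tnfrsf18* was lost without control replicate 1, control replicate 3 or LiCl replicate 3, and in every fit on FPKM values. That of *Tnfrsf13b* was lost with DESeq2 and in each fit without 1 sample except that without control replicate 1. *Tnfrsf13b* was not tested at a minimum of 10 counts per sample or in the filtered FPKM values. It was also not called on log2(FPKM + 1) without filter.

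The ligands of these receptors were mostly rare. Of 17 other TNF ligand genes, 8 were tested. At the thresholds 1 fell, where 4.59% of all tested genes did. Without the minimum fold change 3 fell, *Tnfsf13*, *Tnfsf12* and *Tnfsf13b*, where 22.4% of all tested genes did. The number that rose was 0 in edgeR's test, where 21.1% of all tested genes rose without the minimum fold change. It was also 0 at an unadjusted p under 0.05, and 0 with DESeq2. *Tnfsf12*, which encodes TWEAK, the ligand of the *Tnfrsf12a* product, fell from 3.86 ± 0.43 to 2.37 ± 0.24 CPM (SD, n = 3 each; log2 fold change -0.71 ± 0.16, edgeR adjusted p = 0.0066). *Tnfsf13*, which encodes APRIL, had a log2 fold change of -1.08 ± 0.30 (edgeR, adjusted p = 0.017). Both share the overlapping readthrough gene *Tnfsfm13*, so that their reads may be split. The call of *Tnfsf13* was lost without control replicate 2, control replicate 3 or LiCl replicate 2, and in every fit on FPKM values.

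*Tnf* itself had between 10 and 23 counts in each sample (log2 fold change -0.39 ± 0.37, edgeR adjusted p = 0.44), and its other receptor gene, *Tnfrsf1b*, a log2 fold change of -0.46 ± 0.26 (edgeR, adjusted p = 0.19). *Tnfsf11*, which encodes the ligand RANKL that the *Tnfrsf11b* product captures, had 1 to 5 counts in each sample and was not tested. The RANK gene *Tnfrsf11a* had 4.67 ± 1.13 CPM in the controls and 3.5 ± 0.30 CPM with LiCl (SD, n = 3 each; log2 fold change -0.42 ± 0.19, edgeR adjusted p = 0.10). Both values rested on which controls were kept. Without control replicate 1 the log2 fold changes of *Tnfrsf1b* and *Tnfrsf11a* were -0.69 and -0.56 (edgeR, adjusted p = 0.032 and 0.038), and without control replicate 3 they were -0.17 and -0.21 (edgeR, adjusted p = 0.64 and 0.39).

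All 24 genes for adaptors, ubiquitin ligases and kinases downstream of the receptors were tested. At the thresholds 1 fell and 0 rose in edgeR's test, where 4.59% of all tested genes fell and 2.74% rose. With DESeq2 likewise 1 fell and 0 rose. Without the minimum fold change 7 rose and 4 fell (7 and 5 at an unadjusted p under 0.05), where 21.1% of all tested genes rose and 22.4% fell. *Traf1*, an NF-kB-inducible TRAF gene, fell from 3.88 ± 0.60 to 1.87 ± 0.22 CPM (SD, n = 3 each; log2 fold change -1.05 ± 0.18, edgeR adjusted p = 0.0014). This call was lost without control replicate 2 or LiCl replicate 3. *Traf1* was not tested in the filtered FPKM values and was not called on log2(FPKM + 1) without filter. Of the genes that carry the signal of EDAR and EDARADD, *Traf6* and *Tab2* rose slightly, with log2 fold changes of 0.23 ± 0.06 and 0.30 ± 0.05 (edgeR, adjusted p = 0.012 and 0.0016). The kinase gene *Map3k7* had a log2 fold change of 0.09 ± 0.04 (edgeR, adjusted p = 0.12), and the related adaptor genes *Tab1* and *Tab3* had 0.03 ± 0.05 and 0.05 ± 0.06 (edgeR, adjusted p = 0.65 and 0.51). *Ripk1* and *Casp8*, which act with the death domain receptors, fell by 0.51 and 0.46 on the log2 scale (edgeR, adjusted p = 9.1e-05 and 0.00045). Of the 11 NF-kB core genes, 0 were past the thresholds in edgeR's test, where 7.33% of all tested genes were, and 0 with DESeq2. Without the minimum fold change 3 rose and 2 fell, as at an unadjusted p under 0.05. Those that rose were the inhibitor genes *Nfkbib* and *Nfkbia*, with log2 fold changes of 0.44 and 0.31, and *Chuk*, with 0.19. Those that fell were *Ikbkg* and *Nfkb1*, with log2 fold changes of -0.20 and -0.19.

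Of 13 genes known as targets of EDAR in skin appendages, 9 were tested. Whether EDAR controls these genes in the ureter was not measured, so their values are no readout of EDAR activity here. At the thresholds 2 fell and 0 rose, both in edgeR's test and with DESeq2, while 1 rose at an unadjusted p under 0.05. Of all tested genes, 4.59% fell and 2.74% rose at the thresholds in edgeR's test. *Ccn2*, also a target of YAP and TGF-beta signaling, fell from 23.9 ± 1.90 to 7.57 ± 1.85 CPM (SD, n = 3 each; log2 fold change -1.66 ± 0.16, edgeR adjusted p = 5.0e-05). *Madcam1*, an adhesion molecule gene, had a log2 fold change of -1.07 ± 0.25 (edgeR, adjusted p = 0.0078). It was not past the thresholds without control replicate 2, control replicate 3, LiCl replicate 1 or LiCl replicate 2. The same held on log2(FPKM + 1), with and without filter. *Sostdc1*, an inhibitor of WNT and BMP signaling, had a log2 fold change of 0.95 ± 0.24 (edgeR, adjusted p = 0.010), and was past 1 without control replicate 1, LiCl replicate 2 or LiCl replicate 3. *Shh* had 23.2 ± 0.48 CPM in the controls and 24.0 ± 4.52 CPM with LiCl (SD, n = 3 each; log2 fold change 0.05 ± 0.12). *Dkk4* and *Fgf20*, early targets of EDAR in the skin, were too rare to be tested.

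TNFRSF19 can take the place of the neurotrophin receptor NGFR in the receptor complex for the myelin protein Nogo. Of the 8 genes listed for this complex, 7 were tested. At the thresholds 1 rose and 1 fell, where 2.74% of all tested genes rose and 4.59% fell. *Rtn4*, the gene of Nogo itself, had a log2 fold change of -0.29 ± 0.04 (edgeR, adjusted p = 0.00062). *Rtn4r*, the Nogo receptor gene, fell from 12.7 ± 0.60 to 4.58 ± 0.99 CPM (SD, n = 3 each; log2 fold change -1.47 ± 0.15, edgeR adjusted p = 6.8e-05). *Rtn4rl2*, a related receptor gene, rose from 2.48 ± 0.36 to 5.65 ± 0.78 CPM (SD, n = 3 each; log2 fold change 1.19 ± 0.17, edgeR adjusted p = 0.00046). *Ngfr* had a log2 fold change of -0.18 ± 0.13 (edgeR, adjusted p = 0.29), and *Lingo1*, the coreceptor gene, one of 0.07 ± 0.06 (edgeR, adjusted p = 0.40). With LiCl, the FPKM of *Tnfrsf19* was 17.0 ± 0.81 and that of *Ngfr* 3.56 ± 0.53, against 3.76 ± 0.22 and 3.96 ± 0.39 in the controls (SD, n = 3 each).

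In all, 6 genes for proteases and their inhibitors that process ligands and receptors of the family were examined. Of these, 0 were past the thresholds in edgeR's test, where 7.33% of all tested genes were, and 0 with DESeq2. Without the minimum fold change 4 fell, where 22.4% of all tested genes did, and 4 also fell at an unadjusted p under 0.05. *Furin*, which releases EDA from the membrane, fell by 0.39 on the log2 scale (SE 0.05; edgeR, adjusted p = 0.00019). *Timp3*, the inhibitor of the sheddase ADAM17, fell by 0.58 (SE 0.05; edgeR, adjusted p = 4.7e-05), while *Adam17*, which sheds the *Tnfrsf1a* product, had a log2 fold change of 0.10 ± 0.05 (edgeR, adjusted p = 0.13).

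**Figure D4:**
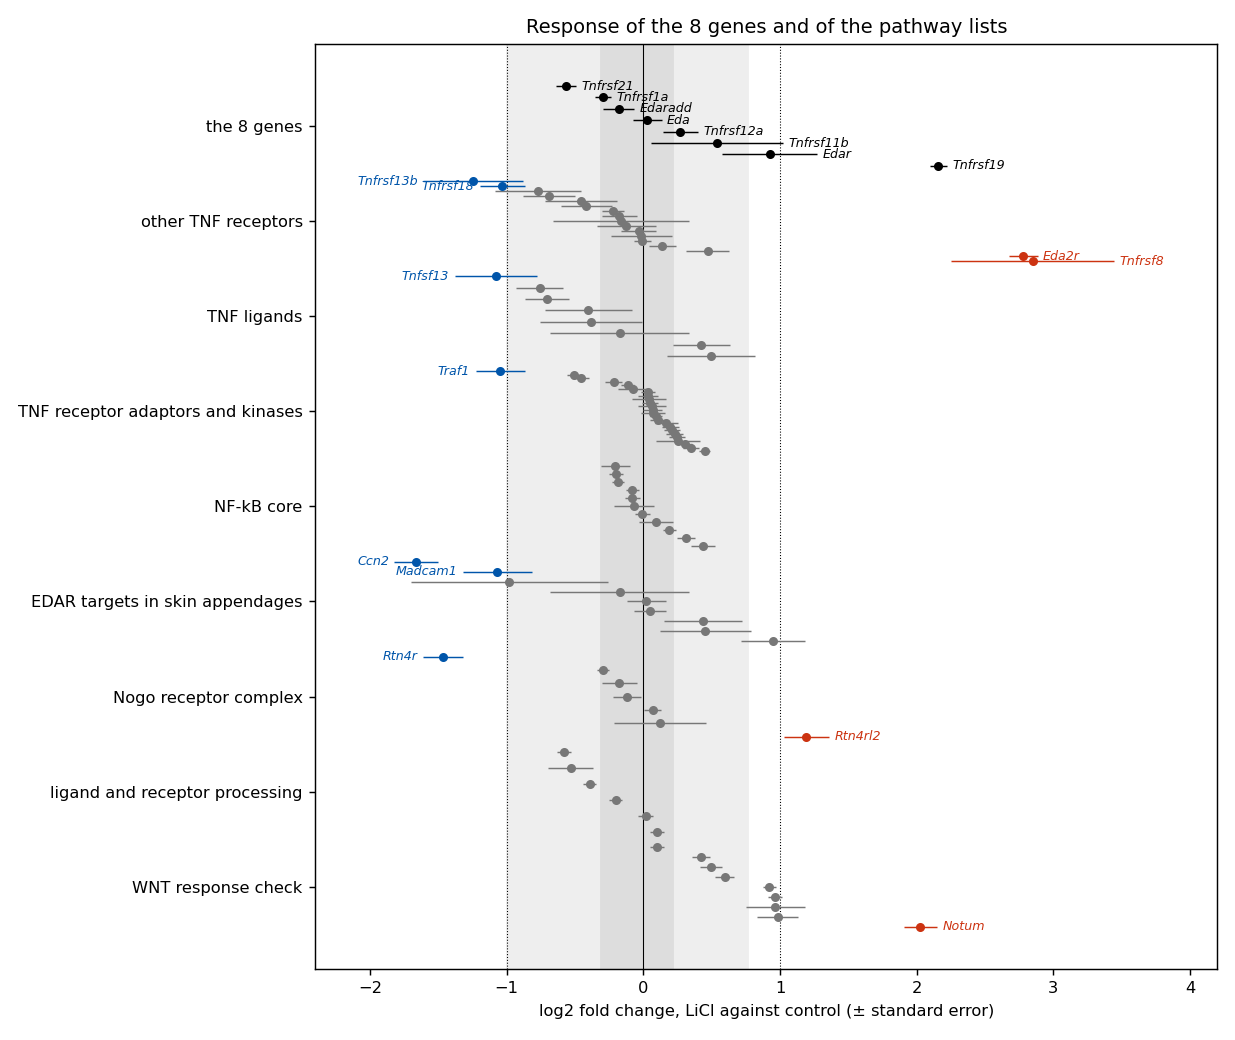
Log2 fold change of LiCl against control (x axis, ± standard error) for the 8 genes (black) and the tested genes of 8 lists, in red or blue where past the thresholds (dotted lines at -1 and 1) and in gray otherwise. Shaded bands run from percentile 25 to 75 and from percentile 5 to 95 of all tested genes. The outer band ends at -0.996 and 0.765. All genes in red or blue lie beyond it, among them *Eda2r* at 2.78, *Tnfrsf8* at 2.85 and *Notum* at 2.03. So do *Tnfrsf19* at 2.16 and *Edar* at 0.92 of the 8 genes, and some genes in gray.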

How the data were processed

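RNA-Seq of E12.5 ureter explants was examined, 3 LiCl and 3 control samples grouped by title. Poly-A enriched, stranded libraries were used. The authors deposited raw counts per gene on GRCm39. The submitters' processing notes list fastp 0.23, STAR 2.7, featureCounts 2.0 and DESeq2 1.40, whereas the methods name HISAT2 as aligner. The annotation release is not given in the sources used here. The deposited FPKM values equal the counts divided by DESeq2 size factors and by 1 constant per gene within 0.1% in 100% of 13480 well counted genes. Gene symbols (GENCODE vM21) were found for 52073 of 56748 identifiers.

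The quasi-likelihood test of edgeR 4.0.16 (R 4.3.3) was run on the counts after filterByExpr and TMM scaling, with Benjamini-Hochberg adjustment. Standard errors follow from coefficient and F statistic. CPM are relative to the summed counts of tested genes, scaled by TMM. A gene was called where the adjusted p was under 0.05 and the log2 fold change past 1 in either direction. The genes and lists were chosen with earlier results of these data known. Named were all 8 genes, called genes of each list, at most 6, fixed partners, *Axin2* and the 5 profiles most like *Tnfrsf19*. Others, such as *Sostdc1*, *Tab2*, *Map3k7* or *Furin*, were named after their values were seen. Within groups, counts varied beyond sampling noise (lowest chi-square over degrees of freedom, 5.97). With 3 against 3, an exact permutation test of 1 gene cannot give a p below 0.1. Other settings tried were DESeq2 1.42.0, scaling by RLE or by library size, no filter, a minimum of 10 counts per sample, a replicate block, each sample left out, limma 3.58.1 on log2(FPKM + 1) and log2(FPKM + 0.1), and no fold change minimum. A fit with LiCl replicate 2 alone was chosen after seeing the data. The edgeR and DESeq2 fits were checked on simulated counts. There, equally many genes were raised and lowered by a fixed fold, none of them with few counts in the controls. This check thus does not cover genes with few counts, such as *Edar*, *Tnfrsf11b* or *Tnfrsf8*. The summed level of the lymphocyte markers is not reported here.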

Additional observations from a re-analysis of the deposited data

How the results depend on the processing

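Of the list genes, *Eda2r*, *Notum*, *Ccn2* and *Rtn4r* were past the thresholds in every setting run. With each sample left out, the log2 fold change of *Tnfrsf19* stayed between 2.12 and 2.20, and on log2(FPKM + 1), with and without filter, it was 1.92 and 1.92, since the pseudocount shrinks it by construction. *Edar* ranged from 0.73 to 1.33 with each sample left out and was 0.12 on log2(FPKM + 1) without filter, by the same construction. With LiCl replicate 2 alone, assumed to vary like the controls, *Eda*, *Tnfrsf21* and *Tnfrsf1a* had log2 fold changes of -0.11, -0.43 and -0.39.

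The number of the 8 genes past the upper threshold was 1 to 2 with each sample left out (2 with *Edar*, without control replicate 1), and 2 were lower without a fold change minimum. Of the list genes, 4 were called higher and 7 lower. These counts were 4 to 7 and 3 to 7 with each sample left out (7 higher without control replicate 1, 3 lower without control replicate 2 or 3, 4 lower without LiCl replicate 2 or 3), 2 and 2 on log2(FPKM + 1), 2 and 2 on log2(FPKM + 1) without filter, 3 lower on log2(FPKM + 0.1), and 23 and 21 without a fold change minimum. Over all tested genes, 498 were higher and 835 lower. These counts became 177 and 141 on log2(FPKM + 1), 171 and 139 on log2(FPKM + 1) without filter, 430 lower on log2(FPKM + 0.1), and 3844 and 4071 without a fold change minimum. For the single genes named under the rule, 262 values kept their side of the adjusted p of 0.05, 14 lost it, 2 gained it and 0 reversed. Replicate numbers did not pair the samples (correlations of deviations 0.03, -0.10 and 0.10, with only replicate 3 closest to its own number). With the replicate block *Tnfrsf19* had a log2 fold change of 2.16, and the same genes, 5 higher and 7 lower, were called among the 8 and the lists. *Edar* and *Tnfrsf11b*, at 3 to 22 counts, are limited by depth.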
